A study of Danio rerio with 24 samples.

Results

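The long arm of zebrafish chromosome 4 was examined through the 1610 annotated genes that start at or beyond 28 Mb, out of 37660 rows in the gene count table. The members were chosen by position and identifier alone, with no measured value, though earlier results of these data were known. They lie between 28062473 and 78068331 on chromosome 4 of GRCz11, the build named in the submitters' processing notes, and were set against the 728 annotated genes of the rest of chromosome 4. Another 130 loci on chromosome 4 carried no Ensembl identifier and were not used in either set.

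This arm is known as a repeat-rich, late-replicating, heterochromatic region that in some natural zebrafish strains carries sex-linked sequence. It holds large families of near-identical genes, above all C2H2 zinc finger genes, many of which are known to be expressed as the embryo's own genome is switched on, and NLR genes, which code for receptors of innate immunity. It also holds the clustered copies of mir-430, the microRNA that clears maternal messages in the early embryo, and many copies of spliceosomal and ribosomal small RNA genes.

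RNA was measured in whole embryos at 3 days post fertilisation, in 24 libraries of about 50 pooled embryos each. The 6 groups of 4 libraries were embryos labelled KO in DMSO, in ML233 (0.5 µM) for 3 h and in ML233 for 24 h, and wild-type (WT) embryos under the same 3 conditions. ML233 is a small molecule first described as an apelin receptor agonist, and DMSO is its solvent. The labels describe the KO line as mutants of both apelin receptor genes in the growth protocol, as a receptor knockout in the titles and as an apelin knockout in the design text, so it is called KO here. Both genotypes came from the AB strain and shared grandparents, and the DMSO groups carried a time of 0 h.

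Libraries held 28.95 M to 43.35 M counts (M, the SI prefix mega). The apelin receptor gene aplnrb had 9.70 to 17.7 counts per M counts (CPM, scaled by edgeR's TMM factors) over the 12 KO libraries, against 21.4 to 26.99 CPM over the 12 WT libraries, and aplnra had 13.3 to 21.3 CPM across KO libraries, against 23.3 to 25.8 CPM across WT libraries. Of 10 markers of embryonic tissues, 9 exceeded 1 CPM in every library. The fast muscle gene mylpfa had a median of 0.03 CPM, although actc1b, also a muscle gene, had at least 22970 CPM. Mylpfa reached 38.5 CPM in KO DMSO replicate 3 and at most 0.303 CPM in any other library. Libraries stood apart within groups. On the first principal component, which held 41.6% of the variance, 6 KO libraries (replicates 2 and 4 in DMSO, 3 and 4 at 3 h, 2 and 4 at 24 h) lay at 37.5 to 143 and the other 6 KO libraries at -47.5 to -27.9. WT replicates 3 and 4 differed from replicates 1 and 2 in every treatment. Several of the main results that rest on these libraries are given with and without them.

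By kind, the long arm held 888 protein-coding genes, 184 long non-coding RNA genes, 59 microRNA genes, 434 other small RNA genes and 45 pseudogenes. Among the coding genes, 170 were named as zinc finger genes, 1 (LO018260.2, described as NLRC3-like) as an NLR gene, and 717 carried other names. Names were shared by 644 of the 1610 genes. The name RF00026, the U6 spliceosomal RNA family, stood for 244 genes, RF00003, the U1 family, for 148, and si:dkey-16p6.1, an uncharacterised coding gene, for 18. How reads that fit several copies were counted was not given in the sources used here, so values of such genes are uncertain.

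Long arm genes were expressed at low levels. At least 1 count in any library was found for 1110 long arm genes (68.9%) and for 677 genes of the rest of the chromosome (93.0%). Enough counts for testing (edgeR's filterByExpr, minimum count 10) were reached by 588 long arm genes, 36.5% of them (exact 95% binomial interval 34.2% to 38.9%, for counting error only), and by 555 genes of the rest, 76.2% (73.0% to 79.3%). Restricted to protein-coding genes, the shares were 541 of 888 (60.9%) on the long arm and 518 of 587 (88.2%) on the rest. The tested long arm genes had a median level of 0.301 CPM per kb of gene model, against 4.36 CPM per kb for the rest of chromosome 4 and 3.71 CPM per kb for annotated genes of other chromosomes.

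The 1610 genes together took 0.161% to 0.180% of the counts in KO libraries and 0.152% to 0.165% in WT libraries, ranges that overlap. Only 26 of them had a mean of at least 10 CPM, against 295 genes of the rest of the chromosome, and the 10 most abundant held 38.3% of all long arm counts. A library in which such a gene had no count could still hold up to 3 counts' worth of its RNA, or 0.104 CPM in the smallest library.

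The kinds of gene differed in how many were measured. All 59 microRNA genes, among them the 54 copies of mir-430, had 0 counts in all 24 libraries. On the rest of chromosome 4, 9 of 10 microRNA genes had counts. All libraries were captured on poly-T beads, and counts of such genes are no measure of the mature small RNAs. Of the 434 other small RNA genes, 78 had any count and 1 was tested, the RF00001 (5S ribosomal RNA) copy ENSDARG00000112072. Zinc finger genes, whose products bind DNA, were the reverse case. Counts were found for 169 of 170, 101 were tested, and none exceeded a mean of 5.04 CPM. The NLRC3-like gene LO018260.2 had 73 counts in all libraries together and was not tested. Long non-coding RNA genes were tested in 23 of 184 cases and pseudogenes in 23 of 45.

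**Figure D1:**
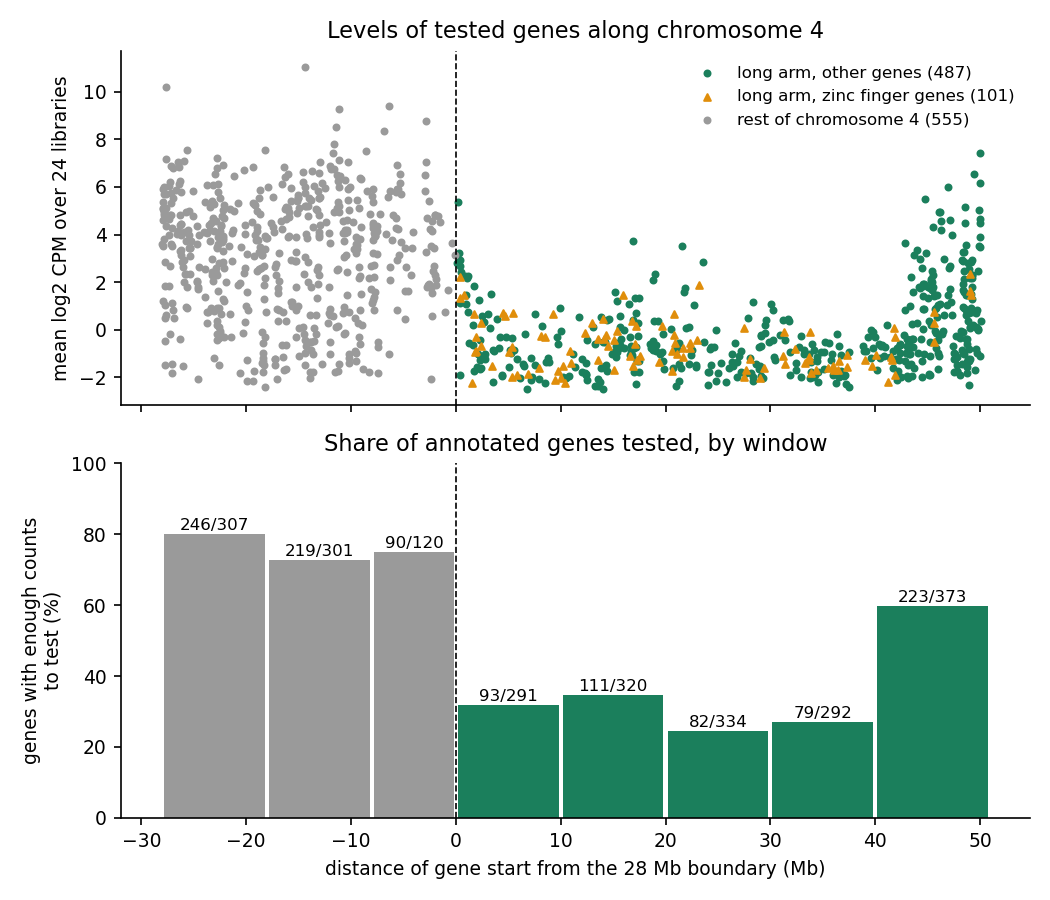
Top, mean log2 CPM over the 24 libraries of each tested gene of chromosome 4 against the distance of its start from the 28 Mb boundary in Mb; bottom, the share of annotated genes tested per window, with tested and annotated genes above each bar. Levels drop within the first few Mb beyond the boundary and rise again at the far end, where 223 of 373 genes (59.8%) were tested.

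Levels varied along the arm. From 28 to 68 Mb, the share of genes tested was 31.96%, 34.7%, 24.6% and 27.1% in successive windows of 10 Mb, whereas it was 59.8% beyond 68 Mb and 72.8% to 80.1% in the windows before 28 Mb. The share of genes tested was low from the boundary on, at 14 of 74 genes (18.9%) between 28 and 29 Mb. The coding genes nearest the boundary had overlapping levels on either side of it. The first coding genes beyond it, gramd4a and celsr1a, averaged 7.63 and 40.9 CPM, and the last 3 genes before it, fam19a5a, tbc1d22a and cerk, averaged 3.20, 12.3 and 9.46 CPM. Celsr1a codes for an atypical cadherin of planar cell polarity and cerk for ceramide kinase. The 5S ribosomal RNA copy within gramd4a averaged 0.00133 CPM. Over more genes the median was lower beyond the boundary. The 90 tested genes starting between 20 and 28 Mb had a median log2 CPM of 3.71. Those between 28 and 29 Mb had a median of 2.22, those between 29 and 70 Mb -0.95 and those beyond 70 Mb 0.55. The limits of 29 and 70 Mb were drawn after the values were seen. Of the 26 long arm genes with at least 10 CPM, 23 started beyond 70 Mb.

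The coding genes with the highest levels per kb were CCT2 at 178 CPM per kb, cct2 at 68.6, ms4a17a.11 at 44.1, zgc:85975 at 37.5, slco1d1 at 28.2 and RAB21 at 24.9 CPM per kb, all beyond 74 Mb. CCT2 and cct2 are separate entries for a subunit of the chaperonin that folds actin and tubulin, slco1d1 codes for an organic anion transporter and RAB21 for a small GTPase of endosomes. CCT2 (ENSDARG00000104674, 78022547 to 78026285, minus strand) had 131, 203, 156 and 204 CPM in KO DMSO libraries and 145, 131, 172 and 177 CPM in WT DMSO libraries. The ranges of the genotypes overlapped, and its log2 fold change between KO and WT, averaged over treatments, was 0.14 ± 0.13 (SE; edgeR quasi-likelihood test, Benjamini-Hochberg adjusted p = 0.517). CCT2, cct2, zgc:85975 and pacsin2 lie inside the long gene model si:dkey-238k10.2 (77761901 to 78048911), so reads could be shared among these entries.

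The highest zinc finger genes per kb were znf1041 (28418829 to 28424193) with 3.35 to 5.39 CPM across KO libraries, against 3.94 to 5.55 CPM across WT libraries, and znf1141 (51160367 to 51173586) with 2.77 to 4.40 CPM across KO libraries, against 2.69 to 6.04 CPM across WT libraries. Among non-coding genes, the antisense gene BX649307.2 reached 18.6 CPM per kb. The strand setting of the counting was not given, so its reads cannot be told apart from those of BX649307.1 and znf1107, which it overlaps. The highest pseudogene, BX088538.1, averaged 4.82 CPM, with overlapping ranges in KO and WT.

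Variation between libraries was summarised per gene as the SD of log2 CPM (prior count 2) within groups of 4, pooled over the 6 groups. The median SD was 0.52 for tested long arm genes, 0.28 for the rest of chromosome 4 and 0.31 for annotated genes of other chromosomes. The sets differ in level, since 66.0% of tested long arm genes and 14.8% of the rest had a mean log2 CPM under 0. At matched level the gap was small and changed sign. Under 0, the median SD was 0.59 on the long arm and 0.61 on the rest, and between 0 and 2 it was 0.36 and 0.42. Between 2 and 4 it was 0.26 on the long arm and 0.25 on the rest. At 4 and over, with 17 long arm genes only, it was 0.27 on the long arm and 0.20 on the rest. No test was made of these medians, since genes are not replicates.

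**Figure D2:**
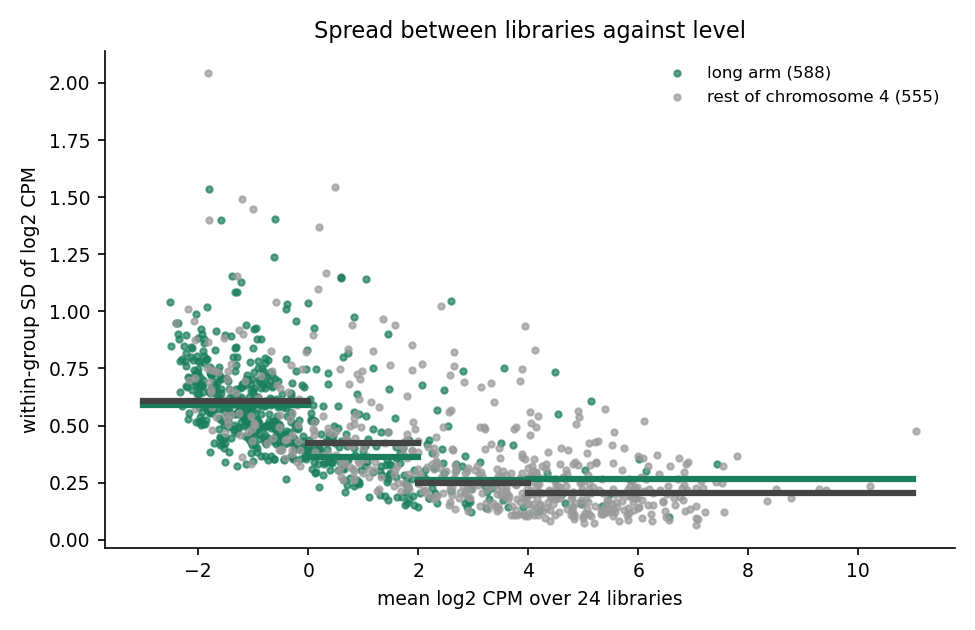
Within-group SD of log2 CPM (vertical axis) against mean log2 CPM over 24 libraries (horizontal axis) for each tested gene of the long arm and the rest of chromosome 4; thick lines are medians per level class, green for the long arm and dark for the rest. Medians are highest in the lowest level class of each set, and in the highest class the long arm median (0.27) lies above that of the rest (0.20).

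The genotype comparison asks which long arm genes differ between KO and WT embryos. In DMSO and at 3 h, 1 of 588 long arm genes passed an edgeR adjusted p of 0.05, with 0.148% of all 27010 tested genes called in each of these comparisons, and at 24 h 3 of 588 did, with 0.459% of all tested genes called. At an unadjusted p under 0.05 there were 45 long arm genes in DMSO (7.65%, with 10.7% of all tested genes), 44 at 3 h (7.48%, with 12% of all) and 46 at 24 h (7.82%, with 14.6% of all). The gene called in each treatment was si:dkey-27n6.4, and at 24 h ms4a17a.4 and ms4a17a.1 were called too. All 3 were higher in KO, where calls in this direction made up 0.104% of tested genes in DMSO, 0.1% at 3 h and 0.37% at 24 h.

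Si:dkey-27n6.4 (ENSDARG00000101757, 71578099 to 71610565, plus strand, protein-coding and uncharacterised) had 4.43, 4.52, 3.86 and 4.42 CPM in KO DMSO libraries and 2.53, 1.79, 1.57 and 1.70 CPM in WT DMSO libraries. At 3 h it had 3.99, 4.96, 4.35 and 4.41 CPM in KO and 3.01, 2.03, 1.47 and 2.20 CPM in WT. At 24 h it had 6.15, 5.62, 3.69 and 4.92 CPM in KO and 1.88, 2.08, 1.33 and 1.86 CPM in WT. Every KO library was above every WT library. The log2 fold change was 1.18 ± 0.21 in DMSO (SE, n = 4 each; edgeR adjusted p = 0.0301), 1.02 ± 0.21 at 3 h (adjusted p = 0.0448) and 1.51 ± 0.21 at 24 h (adjusted p = 0.00499). Averaged over treatments it was 1.24 ± 0.12 (edgeR adjusted p = 3.64e-06, with the libraries of the 3 treatments counted as independent). It was still 1.20 ± 0.16 without the 6 KO libraries that stood apart (adjusted p = 0.000504) and 1.06 ± 0.13 without WT replicates 3 and 4 (adjusted p = 0.0016). The calls within a treatment were less firm. Without the 6 KO libraries the adjusted p was 0.17 in DMSO, 0.306 at 3 h and 0.0394 at 24 h, and without WT replicates 3 and 4 it was 0.396, 0.564 and 0.261. The DMSO call also ended when any WT DMSO library or KO DMSO replicate 2 or 4 was left out, the 3 h call when any library of that comparison but KO replicate 2 was left out, and the 24 h call without WT 24 h replicate 4.

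Within 1 Mb of this gene, 38 other long arm genes were tested and 1 was called in the comparison averaged over treatments, in which 15.7% of all tested genes were called. It was the pseudogene BX927130.3, with 0.632 to 1.80 CPM across KO libraries, against 0.0318 to 1.01 CPM across WT libraries (log2 fold change 0.92 ± 0.29, edgeR adjusted p = 0.0311). Its ranges overlapped.

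Averaged over the 3 treatments, 35 of 588 long arm genes passed the test (5.95%), of which 25 were higher and 10 were lower in KO embryos. Of all tested genes, 15.7% were called, 9.39% higher and 6.29% lower, and of the rest of chromosome 4, 99 of 555 (17.8%). This comparison counts the libraries of the 3 treatments as independent samples. In WT, same-numbered libraries deviated together from their group means, with correlations of 0.35 to 0.51 between DMSO and either ML233 time. In KO they did so between DMSO and 24 h, with correlations of 0.49 to 0.62. Between DMSO and 3 h in KO the correlations ran from -0.49 to 0.59. The libraries are thus not all independent in either genotype, and the p-values of this comparison are probably too small. The called share was lower on the long arm at each level examined. At a mean log2 CPM under 0, 4.38% of long arm genes and 8.54% of the rest were called, between 0 and 2 7.46% and 16.5%, between 2 and 4 10.2% and 13.99%, and at 4 and over 17.6% and 24.0%. In the upper 2 classes the long arm shares rest on 5 of 49 and 3 of 17 genes. The difference between these shares was not tested. The median log2 fold change was -0.01 over long arm genes and over all tested genes alike. Without the 6 KO libraries apart 17 long arm genes were called, of which 11 were among the 35, and without WT replicates 3 and 4 22 were called, 14 of them among the 35. Leaving out WT DMSO replicate 4 or WT 24 h replicate 4 alone gave 23 calls. The shares of all tested genes called in these smaller fits are not given here.

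**Figure D3:**
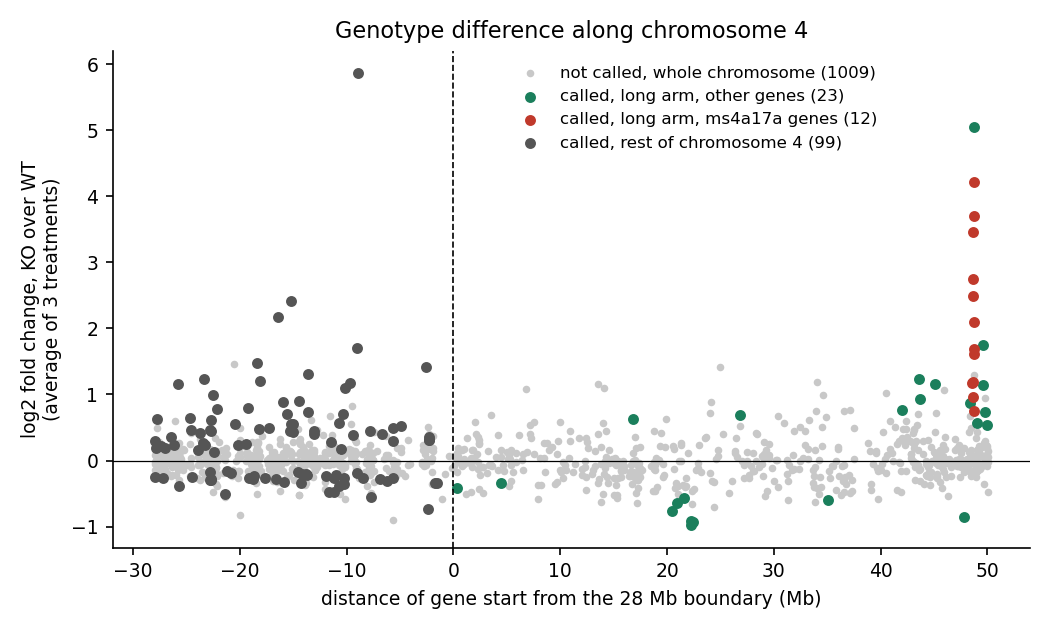
Log2 fold change of KO over WT, averaged over the 3 treatments (vertical axis), against distance of the gene start from the 28 Mb boundary in Mb for 1143 tested genes of chromosome 4; coloured and dark points passed an edgeR adjusted p of 0.05. The red ms4a17a genes and the neighbouring gene at 5.06 stand together near the far end, and 6 genes with negative values stand about 20 to 23 Mb beyond the boundary.

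Most of the higher genes came from a single stretch. Between 76 and 77 Mb, 42 genes were tested and 15 were called, all higher in KO, with 9.39% of all tested genes called higher. Of these 15 genes, 12 belong to ms4a17a, a tandem family that codes for membrane proteins with 4 membrane spans, of the group that includes the B cell antigen CD20 in mammals. The family was singled out after its values were seen. All its 14 genes lie on the long arm, on the same strand between 76509294 and 76785895, and all 14 were tested. Their log2 fold changes ran between -0.16 for ms4a17a.17 and 4.22 for ms4a17a.4, with a median of 1.65, against -0.01 over all tested genes. Ms4a17a.4 was near the floor in WT, with 0.0271 to 0.169 CPM, against 0.160 to 3.49 CPM across KO libraries. Its ranges overlapped, and its fold change rests on few WT counts. The 2 family members that were not called were ms4a17a.17 (adjusted p = 0.585) and ms4a17a.6 (1.29 ± 0.46, adjusted p = 0.0576). Without the family, 23 of 574 long arm genes were called (4.01%), 13 higher and 10 lower.

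The summed level of the 14 genes was 62.1, 215, 83.8 and 209 CPM in KO DMSO libraries and 57.1, 67.6, 55.0 and 51.2 CPM in WT DMSO libraries. At 3 h it was 76.9, 74.0, 203 and 178 CPM in KO and 53.7, 51.3, 60.4 and 65.7 CPM in WT. At 24 h it was 83.2, 284, 65.6 and 265 CPM in KO and 66.1, 61.2, 61.4 and 46.2 CPM in WT. The KO libraries split, with 2 of 4 in each treatment at 178 CPM or more and the others within or somewhat above the range of WT, whereas the WT libraries lay close together. In DMSO and at 24 h the genotypes overlapped. The 6 high libraries were the 6 that stood apart on the first principal component.

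The same split was seen in single genes. Ms4a17a.2 (76671012 to 76688961) had 1.15, 10.5, 1.98 and 11.8 CPM in KO DMSO libraries and 0.326, 0.678, 0.626 and 0.238 CPM in WT DMSO libraries. At 3 h it had 1.54, 1.76, 9.23 and 6.12 CPM in KO and 0.327, 0.295, 0.609 and 0.859 CPM in WT. At 24 h it had 2.53, 12.4, 1.15 and 11.3 CPM in KO and 0.626, 0.616, 0.650 and 0.562 CPM in WT. Every KO library was above every WT library, also those outside the high 6. The log2 fold change over treatments was 3.46 ± 0.47 (edgeR adjusted p = 8.39e-05), and without the 6 KO libraries it was 1.65 ± 0.25 (adjusted p = 0.00169).

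Ms4a17a.7 had 8.36 to 40.7 CPM in KO libraries, with a median of 21.7, and 6.68 to 8.19 CPM in WT libraries, with a median of 7.30. Ms4a17a.5 had 2.04 to 14.2 CPM across KO libraries, against 0.781 to 1.79 CPM across WT libraries. These 2 genes, ms4a17a.2 and ms4a17a.12 were the family members without overlap between 12 KO and 12 WT libraries. Ms4a17a.12 was low in WT, with 0.0271 to 0.326 CPM, against 0.408 to 5.72 CPM across KO libraries. Of all tested genes, 0.378% had every KO library above every WT library. Ms4a17a.11, the most abundant member, had 26.1 to 106 CPM across KO libraries, against 16.9 to 30.3 CPM across WT libraries, and its log2 fold change was 1.18 ± 0.23 (edgeR adjusted p = 0.00164) with all libraries and 0.32 ± 0.11 (adjusted p = 0.118) without the 6 KO libraries.

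Without the 6 KO libraries, 7 of the 14 genes were called, the median log2 fold change was 0.62 and that of ms4a17a.4 was 2.41 ± 0.37 (edgeR adjusted p = 0.00134). Without WT replicates 3 and 4, 8 were called higher, ms4a17a.17 was called lower (log2 fold change -0.52 ± 0.12, edgeR adjusted p = 0.0271), and the median was 1.60. In both cases 13 of 14 values were positive. The shares of all tested genes called in these fits are not given here. Ms4a17a.4 and ms4a17a.12 overlap on the same strand and 2 entries are both named ms4a17a.10, so the values of these 4 entries are uncertain.

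**Figure D4:**
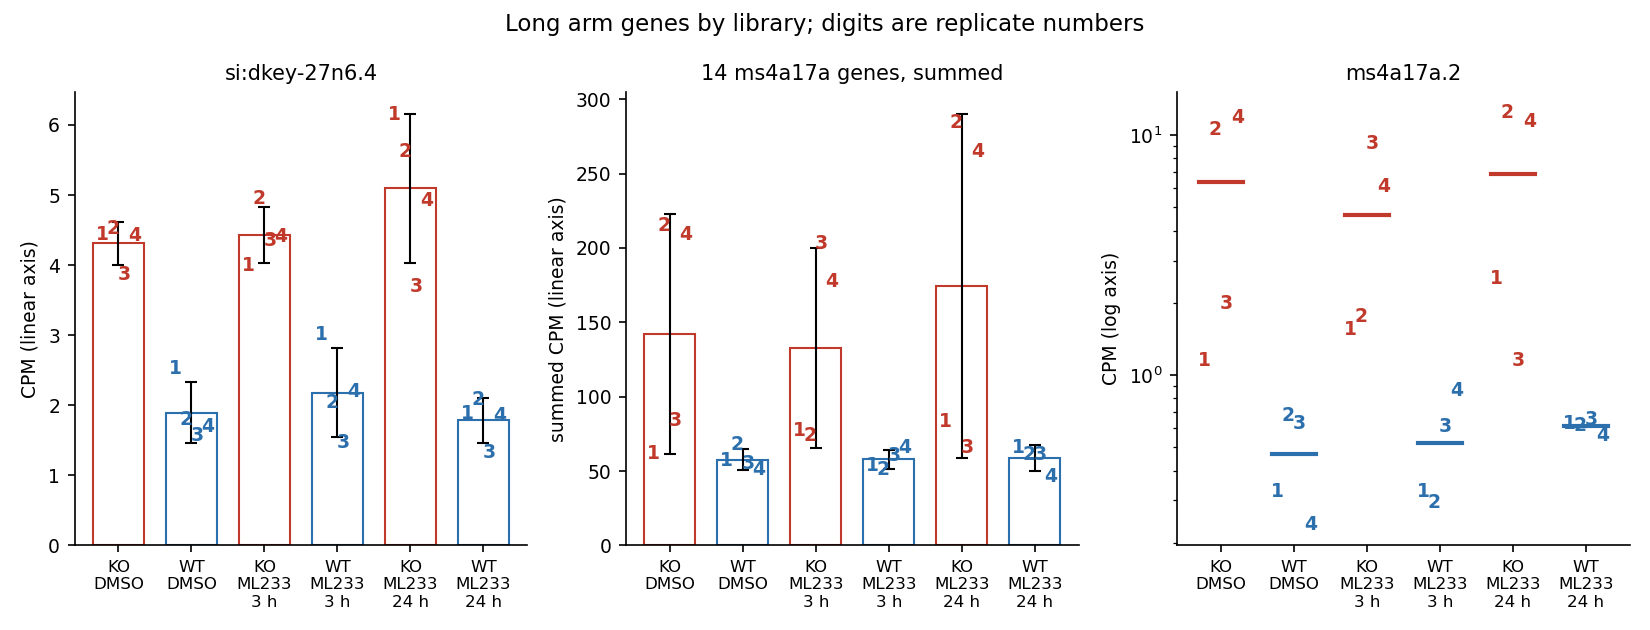
CPM per library of si:dkey-27n6.4 (left, bars are means and error bars SD, n = 4), summed CPM of the 14 ms4a17a genes (centre, likewise) and CPM of ms4a17a.2 (right, log axis, lines are means), with KO groups in red and WT groups in blue and replicate numbers as plotting symbols. KO libraries of si:dkey-27n6.4 sit between 3.69 and 6.15 CPM, above all WT libraries, whereas 6 KO libraries carry the ms4a17a sum to 178 to 284 CPM.

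Other genes differed between these libraries too. Of 5 genes of injury and innate immunity listed for this purpose, mmp9, mmp13a and il1b had no overlap between KO and WT libraries. All 3 were higher in KO, as 0.378% of all tested genes were without overlap. The macrophage gene mpeg1.1 overlapped, with 0.294 to 1.46 CPM across KO libraries, against 0.130 to 0.548 CPM across WT libraries, and the neutrophil gene lyz was at or near 0, with at most 0.316 CPM in KO and 0.360 CPM in WT. Their summed level was 211 to 808 CPM in the 6 KO libraries apart, 46.2 to 370 CPM in the other KO libraries, which overlap, and 13.8 to 22.8 CPM in WT libraries. Of the 10 markers of embryonic tissues, 4 had no overlap between the 6 KO libraries apart and the other 6 KO libraries. These 2 sets were drawn from the same expression values, so many genes must differ between them. The share of all tested genes without overlap between these sets was not counted, so the 4 are a description only. The neuronal gene elavl3 had 86.7 to 225 CPM in the 6, 297 to 340 CPM in the other KO libraries and 169 to 321 CPM in WT libraries. The heart muscle gene myl7 had 12.8 to 19.2 CPM in the 6, 25.04 to 31.4 CPM in the other KO libraries and 25.5 to 36.3 CPM in WT libraries. Both were lower in the 6, whereas the glial gene gfap and actc1b were higher. Gfap had 295 to 324 CPM in the 6, 243 to 258 CPM in the other KO libraries and 268 to 297 CPM in WT libraries. For gfap it was thus the other KO libraries that lay below all WT libraries. Actc1b had 27997 to 43606 CPM in the 6 and 22970 to 26323 CPM in the other KO libraries. Its WT range of 24524 to 35315 CPM overlapped both. Aplnrb also split, with 9.70 to 12.4 CPM in the 6 and 16.1 to 17.7 CPM in the other KO libraries. The part of these genes in the ms4a17a result was not tested. In whole-embryo pools, a change in the number of cells of a type and a change in RNA per cell cannot be told apart.

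Next to the family, si:ch73-56d11.3 (76787274 to 76808437, uncharacterised) had 0.159, 2.98, 0.381 and 3.19 CPM in KO DMSO libraries and 0, 0.108, 0.0626 and 0.0340 CPM in WT DMSO libraries. Its 12 KO libraries lay above its 12 WT libraries, which held 0 to 5 counts each. The margin was narrow and near the floor, with 0.134 CPM in the lowest KO library and 0.130 CPM in the highest WT library. The log2 fold change over treatments was 5.06 ± 0.73 (edgeR adjusted p = 0.000122), and without the 6 KO libraries it was 2.71 ± 0.51 (adjusted p = 0.0056). Counting this gene, 6 long arm genes (1.02%) had no overlap between the genotypes, all higher in KO, against 0.6% of all tested genes in either direction and 0.378% with KO higher. All of them but si:dkey-27n6.4 lie in or next to the ms4a17a family, so this share comes mostly from a single stretch.

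Higher genes outside that stretch included 2 between 29 and 70 Mb, BX649307.2 and si:dkey-19c16.12. Pacsin2, which lies at the far end and codes for an F-BAR protein that bends membranes, had 28.3 to 55.6 CPM in KO libraries, with a median of 40.3, and 23.4 to 33.0 CPM in WT libraries, with a median of 27.1 (log2 fold change 0.54 ± 0.12, edgeR adjusted p = 0.00433). The uncharacterised genes si:dkey-61p9.11 and si:ch211-171l17.14 had log2 fold changes of 1.75 ± 0.37 (adjusted p = 0.00276) and 0.77 ± 0.18 (adjusted p = 0.00668). BX649307.2 had 10.6 to 25.2 CPM across KO libraries, against 9.49 to 12.2 CPM across WT libraries (0.63 ± 0.16, adjusted p = 0.01). Without the 6 KO libraries apart, pacsin2 (0.15 ± 0.07, adjusted p = 0.262), si:dkey-61p9.11 (0.59 ± 0.29, adjusted p = 0.256), si:ch211-171l17.14 (0.52 ± 0.20, adjusted p = 0.162) and BX649307.2 (0.05 ± 0.06, adjusted p = 0.662) were not called. All 4 overlapped between genotypes, and all were chosen after their values were seen.

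Of the 10 lower genes, 6 lay between 48 and 51 Mb, where 30 genes were tested, 0 were called higher, 25 had a negative log2 fold change and the median was -0.38. These 6 of 30 genes stand beside 6.29% of all tested genes that were called lower. The 25 stand beside 51.4% of all tested genes with a negative value. Si:dkey-159n16.2 (49550966 to 49582758), the most abundant of them, had 7.78, 14.01, 4.44 and 11.1 CPM in KO DMSO libraries and 11.1, 15.4, 15.1 and 17.2 CPM in WT DMSO libraries. Over all treatments it spanned 4.44 to 14.01 CPM across KO libraries, against 8.56 to 19.1 CPM across WT libraries, with overlap, and its log2 fold change was -0.57 ± 0.16 (edgeR adjusted p = 0.0187). It was -0.90 ± 0.17 without the 6 KO libraries apart (adjusted p = 0.0083) and -0.36 ± 0.20 without WT replicates 3 and 4 (adjusted p = 0.245). Si:dkey-28k24.2 (-0.76 ± 0.18, adjusted p = 0.00662), si:dkey-16p6.1 (-0.91 ± 0.22, adjusted p = 0.00767), ENSDARG00000088616 (-0.98 ± 0.28, adjusted p = 0.0193), BX663613.1 (-0.93 ± 0.28, adjusted p = 0.0255) and znf1064 made up the 6. All overlapped between genotypes, and the stretch was chosen after its values were seen. Si:dkey-16p6.1 is 1 of 18 entries of that name and lies within ENSDARG00000088616 on the other strand. Si:dkey-159n16.2, si:dkey-16p6.1, ENSDARG00000088616, BX663613.1 and znf1064 were higher in WT replicates 3 and 4 than in 1 and 2, whereas si:dkey-28k24.2 was not. Mean log2 CPM of si:dkey-16p6.1 was 0.30, 0.01, 0.87 and 0.92 for WT replicates 1 to 4. Among the 6, only BX663613.1 was called for replicate number in WT (edgeR adjusted p = 0.0489). The 6 and the 25 are given with all libraries only.

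Averaged over treatments, zinc finger genes were called in 2 of 101 cases (1.98%, with 15.7% of all tested genes called and 6.29% called lower), both lower in KO, znf1085 (log2 fold change -0.35 ± 0.12, edgeR adjusted p = 0.0451) and znf1064 (-0.64 ± 0.21, adjusted p = 0.0389). Znf1085 had 1.04 to 1.74 CPM across KO libraries, against 1.30 to 2.21 CPM across WT libraries, and znf1064 had 0.244 to 0.717 CPM across KO libraries, against 0.422 to 1.21 CPM across WT libraries. Log2 fold changes were below 0 for 70 of 101 (69.3%), beside 51.4% of all tested genes. The median of the 101 was -0.12, against -0.01 over all tested genes. Without the 6 KO libraries apart 62 of 101 were below 0, and without WT replicates 3 and 4 it was 56 of 101. The median was -0.12 with size factors from DESeq2's median-of-ratios method, -0.13 without the 6 KO libraries apart and -0.03 without WT replicates 3 and 4, where 0 were called. Their summed level was 74.4 to 87.5 CPM across KO libraries, against 82.2 to 92.9 CPM across WT libraries, ranges that overlap. Of other kinds, 30 of 440 remaining coding genes (6.82%, 22 higher and 8 lower) were called. So were 2 of 23 long non-coding RNA genes (8.70%) and 1 of 23 pseudogenes (4.35%), these 3 all higher. All these shares were below the 15.7% of all tested genes. Kinds rest on names and descriptions, so the 440 may hold zinc finger or NLR genes under other names.

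ML233 against DMSO gave 0 called long arm genes in either genotype at either time, and 0 of all 27010 tested genes (edgeR adjusted p; 0% called in each). DESeq2 also called 0 long arm genes, and with the replicate number as a block, 3 genes outside the arm were called at 3 h in WT. In KO embryos, an unadjusted p under 0.05 was reached by 12 long arm genes at 3 h (2.04%, with 1.51% of all tested genes) and by 17 at 24 h (2.89%, with 2.82% of all). In WT embryos it was reached by 8 at 3 h (1.36%, with 1.68% of all) and by 10 at 24 h (1.70%, with 0.929% of all). Si:dkey-27n6.4 changed by a log2 value of 0.04 ± 0.20 at 3 h and 0.24 ± 0.20 at 24 h in KO, and by 0.20 ± 0.21 and -0.09 ± 0.21 in WT, none of which passed the test. The 3 h and 24 h comparisons of a genotype share their DMSO libraries.

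Replicate number, which the labels tie to no batch or day, was examined because the WT libraries fell into pairs. In KO, where the libraries that stood apart were replicates 2 and 4 in DMSO and at 24 h but 3 and 4 at 3 h, a test of replicate number with treatment as a term called 0 of 552 long arm genes and 0% of all tested genes. At an unadjusted p under 0.05 it found 37 long arm genes (6.70%) and 12.9% of all. The same test in WT called 90 of 524 long arm genes (17.2%), where 37% of all tested genes and 196 of 541 genes of the rest of the chromosome (36.2%) were called. By level in WT, the shares on the long arm and the rest were 11.7% and 20.3% under a mean log2 CPM of 0, 19.4% and 26.0% between 0 and 2, 34.7% and 36.4% between 2 and 4, and 52.9% and 45.1% at 4 and over, the last from 17 long arm genes. The difference between KO and WT in this respect was not tested.

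Among the 8 long arm genes with the widest range between WT replicate numbers, taken from those that this WT test called and whose mean log2 CPM was not under 0, 7 were higher in replicates 1 and 2 and 1, CR388132.1, in replicates 3 and 4. Outside these 8, called genes went both ways. Gramd4a was higher in replicates 1 and 2 (edgeR adjusted p = 8.66e-05). CCT2, cct2 and zgc:85975 were higher in replicates 3 and 4. CCT2 had WT means of log2 CPM of 7.18, 7.14, 7.63 and 7.55 for replicates 1 to 4 (edgeR adjusted p = 0.000904). How many of all called genes went each way is not given here. Kcna1b (74551606 to 74556277) codes for a Shaker-type potassium channel of neurons. In KO replicates 1 to 4 it had 3.06, 0.582, 2.54 and 1.03 CPM in DMSO, then 2.38, 2.66, 1.27 and 0.750 CPM after ML233 for 3 h, and 2.26, 0.339, 3.07 and 0.909 CPM after 24 h. The WT values in the same order were 2.50, 2.47, 0.876 and 1.12 CPM in DMSO, then 3.37, 3.39, 0.737 and 0.350 CPM after 3 h, and 2.66, 3.08, 0.495 and 1.29 CPM after 24 h (edgeR adjusted p of replicate number in WT = 0.00124). The 6 KO libraries that stood apart were its 6 lowest KO libraries, and WT replicates 3 and 4 its 6 lowest WT libraries. The log2 fold change of KO against WT, averaged over treatments, was -0.09 ± 0.41 and did not pass the test (edgeR adjusted p = 0.922).

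The other genes of this kind behaved in more than 1 way. PHF21B, a PHD finger gene, had 0.136 to 4.72 CPM across KO libraries, against 0.700 to 3.80 CPM across WT libraries, and its WT means of log2 CPM were 1.72, 1.89, 0.33 and 0.68 for replicates 1 to 4 (edgeR adjusted p = 0.00655). The long model si:dkey-238k10.2 lay between 5.002 and 9.98 CPM in KO. In WT it had 7.13, 8.16, 3.44 and 2.92 CPM in DMSO replicates 1 to 4, and 1.43 to 7.78 CPM at 3 h and 24 h (adjusted p = 0.000259). Its genotype difference was 0.73 ± 0.25 on the log2 scale (adjusted p = 0.0465) and 0.20 ± 0.16 without WT replicates 3 and 4 (adjusted p = 0.405). Si:dkey-238k10.1, next to it, had 1.64 to 4.13 CPM across KO libraries, against 0.286 to 3.42 CPM across WT libraries. The long non-coding RNA gene CR388132.1 (29139757 to 29142639) had 0.794 to 4.10 CPM in KO libraries. It had 0.979, 0.922, 4.44 and 2.34 CPM in WT DMSO replicates 1 to 4, and all WT replicates 3 and 4 lay above all WT replicates 1 and 2 (adjusted p = 0.000479).

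**Figure D5:**
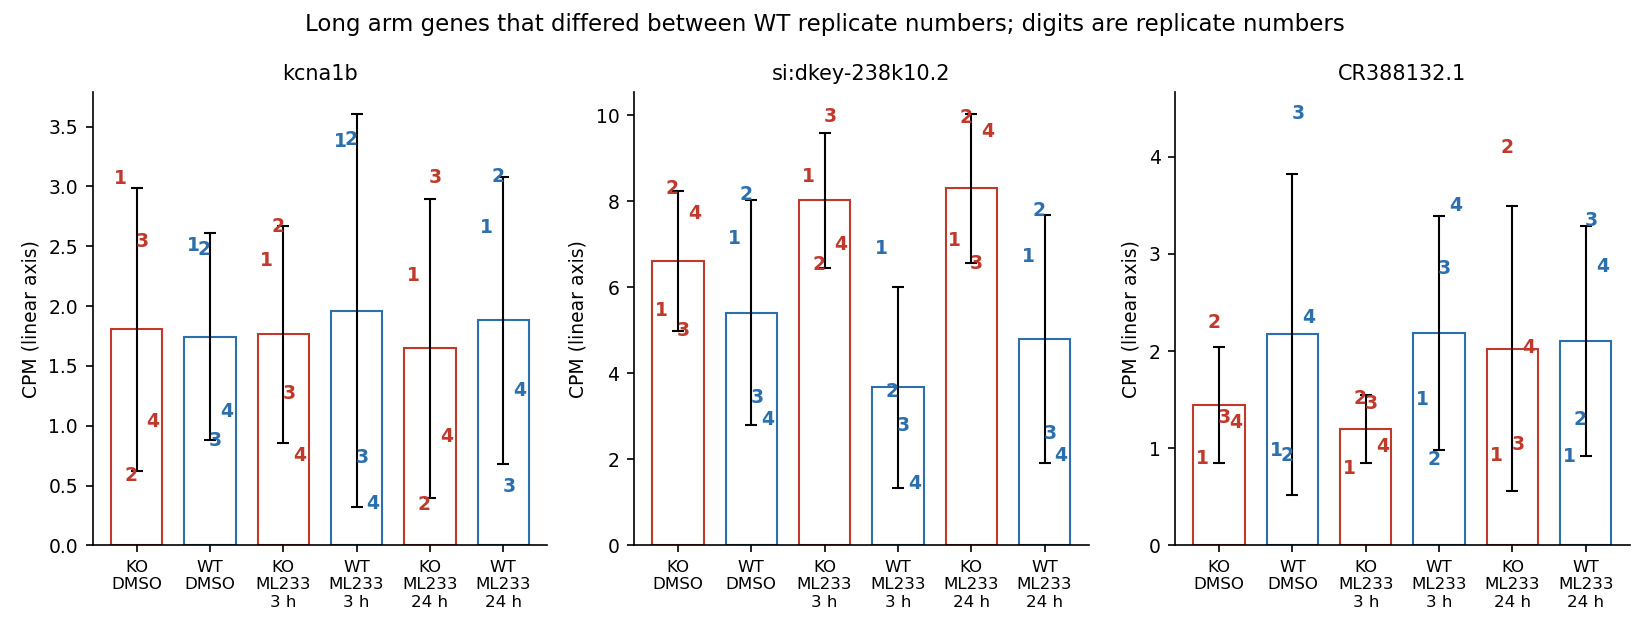
CPM per library of kcna1b, si:dkey-238k10.2 and CR388132.1, with KO groups in red and WT groups in blue, bars for means, error bars for SD (n = 4) and replicate numbers as plotting symbols. WT replicates 3 and 4 are low for kcna1b in every treatment, between 0.350 and 1.29 CPM, and high for CR388132.1.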

How the data were processed

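The deposited table held whole-number counts per gene for 24 libraries, not normalized by the authors, with gene positions and names. Per the labels' protocols, libraries were made from poly(A) RNA with random hexamers and a dUTP second strand and read paired-end. The submitters' processing notes name HISAT2 2.0.5, StringTie, featureCounts, R 4.3.2 and DESeq2 1.42.1 without roles, and the build GRCz11. Counting settings were not given in the sources used here.

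Counts were fitted with edgeR 4.0.16 under R 4.3.3 (filterByExpr, minimum count 10; TMM; 1 term per group over all 24 libraries; quasi-likelihood tests, two-sided). P-values were adjusted by the Benjamini-Hochberg method over the genes tested in a fit, 27010 in the main fit, and genes were called under 0.05. For replicate number the filter was applied anew within each genotype, which left 26142 tested genes in WT and 26567 in KO. Replicate number was tested within each genotype with treatment as a term. CPM used TMM-scaled library sizes and log2 CPM a prior count of 2. SE was taken as the size of the fitted log2 fold change divided by the root of the F statistic. The ± after a fold change is SE. The count test was checked on simulated data. Labels call the libraries biological quadruplicates.

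Members and gene lists were chosen with earlier results of these data known. Gene kinds came from names and descriptions, because the table's family column was empty. Named genes were, by rule, those called in a single treatment; called over treatments without overlap at a mean log2 CPM not under 0 (at most 8 per direction); of those called for replicate number in WT at a mean log2 CPM not under 0, the 8 with the widest range between numbers; the 6 coding genes highest per kb and the top 2 of each kind; and 3 on each side of 28 Mb. Same-numbered libraries deviated together (every correlation over 0.1) for both ML233 comparisons in WT, for 24 h in KO and for KO against WT at 3 h. The reported fits of these comparisons held no term for such pairing. Replicate number entered them only in the alternative with a replicate block. The numbers come from the sample titles. Of the long arm IDs, 1402 of 1610 were in the gene-name table. Alternatives were DESeq2 1.42.0, RLE size factors, no filter, only the groups compared, a replicate block, a boundary at 32 Mb, a prior count of 0.5, each library left out and, added after seeing the data, the removal of the 6 KO libraries apart or of WT replicates 3 and 4.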

Additional observations from a re-analysis of the deposited data

Results flagged for a closer look

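Among 216 groups of 4 libraries examined for the named genes, 4 held a library far from the others, where chance alone would give about 10.8. Si:dkey-27n6.4 had 3.86 CPM in KO DMSO replicate 3, below 4.42 to 4.52 CPM in the others of that group. RAB21 had 21.6 CPM in KO 24 h replicate 2, below 31.7 to 33.0 CPM in the others. Ms4a17a.3 had 0.267 CPM in KO 24 h replicate 3, below 0.530 to 0.576 CPM in the others. Cct2 had 29.5 CPM in KO 3 h replicate 4, above 20.9 to 22.2 CPM in the others.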

How the results depend on the processing

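The number of long arm genes called between KO and WT within a treatment depended on the processing. In DMSO it was 1 as reported, 10 with DESeq2 and 0 each with only the groups compared in the fit, without the 6 KO libraries apart and without WT replicates 3 and 4. At 3 h it was 1 as reported, 8 with DESeq2 and 0 each with no filter, with only the groups compared, without the 6 KO libraries and without WT replicates 3 and 4. At 24 h it was 3 as reported, 12 with DESeq2, 0 with only the groups compared, 1 without the 6 KO libraries and 0 without WT replicates 3 and 4. Averaged over treatments it was 35 as reported, 17 without the 6 KO libraries and 22 without WT replicates 3 and 4. Leaving out 1 library at a time gave 0 to 4 calls in DMSO, 0 to 1 at 3 h, 0 to 14 at 24 h and 23 to 40 over treatments. For these alternatives the share of all tested genes called is not given here. The counts given here therefore do not show whether the long arm moved apart from other genes, and the cause was not tested.

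With the replicate number as a replicate block, 1 long arm gene was called in DMSO, 1 at 3 h, 2 at 24 h and 42 over treatments, 33 of them among the 35, and 0 for ML233. Every ML233 alternative gave 0 long arm calls. Replicate number in KO gave 0 long arm calls as reported and 22 without the 3 h libraries. In WT it gave 90 as reported, and 40 without DMSO, 55 without 3 h and 49 without 24 h libraries, with fewer samples. The shares of all tested genes called in these alternatives are not given here either. With a mean of at least 1 CPM in place of the test filter, 12.7% of long arm genes counted as detected, against 36.5%. With a prior count of 0.5 the median SD was 0.57 on the long arm, against 0.52. For si:dkey-27n6.4 and the ms4a17a genes, KO against WT averaged over treatments, 420 results kept their side of the threshold, 25 lost it and 5 gained it, and none changed sign. The uncalled ML233 values of si:dkey-27n6.4 ran from -0.02 to 0.09 at 3 h in KO and from -0.17 to 0.09 at 24 h in WT, and so changed sign. RLE size factors moved the median log2 fold change of all tested genes by under 0.02. Depth limits the long arm, since 66.0% of its tested genes had a mean log2 CPM under 0, and reads shared between near-identical copies may be split or dropped.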
